A study of Arabidopsis thaliana with 18 samples.

Results

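Cytokinin synthesis and breakdown genes were examined as the 10 Arabidopsis genes *IPT3*, *CYP735A1*, *CYP735A2* and *CKX1* to *CKX7*, of the 26716 genes with a probe on the array. They were chosen by name and locus, and each had 1 probe: *IPT3* (AT3G63110), *CYP735A1* (AT5G38450), *CYP735A2* (AT1G67110), *CKX1* (AT2G41510), *CKX2* (AT2G19500), *CKX3* (AT5G56970), *CKX4* (AT4G29740), *CKX5* (AT1G75450), *CKX6* (AT3G63440) and *CKX7* (AT5G21482). Whole shoots of transgenic lines that carry *AO*, the gene for L-aspartate oxidase in NAD synthesis, were compared by microarray before nitrogen (N) starvation, during it and after nitrate resupply. Both lines are in the *ao* null background and carry *AO* under its own promoter. In *AO*pro(mut)-*AO* plants the nitrate-responsive element of that promoter is mutated, and the labels call the line nitrate-non-inducible. In *AO*pro(wt)-*AO* plants the promoter is intact. Each line is a single independent transformant, so effects of the promoter and of the individual line cannot be told apart. Plants were sampled after 17 days of hydroponic growth by the labels (0 d), where the paper states a longer time. Other plants were sampled after a further 3 days without N, and 24 h after resupply of 10 mM KNO3. There were 3 arrays for each line and stage (18 in all), with RNA pooled from several seedlings per array. Plants kept on N for the same time were not among the arrays, so a change with treatment also includes the change with age.

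Cytokinins are plant hormones that promote cell division and shoot growth, delay leaf senescence and carry information on N supply between root and shoot. Isopentenyltransferases (IPTs) attach an isoprenoid side chain to adenine nucleotides and so give isopentenyladenine-type precursors. The cytochrome P450 enzymes CYP735A1 and CYP735A2 hydroxylate that side chain to the *trans*-zeatin form, LOG enzymes release the active bases, and cytokinin oxidases/dehydrogenases (CKXs) remove the side chain and inactivate the hormone. *IPT3* is the isopentenyltransferase known in Arabidopsis for expression in phloem and induction by nitrate.

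Signals are given as log2 of the processed signal minus the 75th percentile of the same array, so that 0 is the level of that percentile. The percentile was 2214 to 3111 intensity units, each array had 72.6 to 76.1% of its spots well above background, and saturated spots numbered 0. The labels were checked first on *AO* itself, which was lower in *AO*pro(mut)-*AO*, with log2 fold changes of -2.85, -2.38 and -2.12 at 0 d, after starvation and after resupply (limma, adjusted p = 1.97e-08, 1.23e-07 and 4.05e-07). Within *AO*pro(wt)-*AO* the *AO* signal changed by -0.45 with starvation (adjusted p = 0.0484) and by -0.22 with nitrate (adjusted p = 0.344). Within *AO*pro(mut)-*AO* it changed by 0.02 and 0.04 (adjusted p = 0.956 and 0.905). All 5 shoot markers were well above background on all arrays. Of 5 root markers, the endodermal genes *CASP1* and *CASP2* were above background on all 18 arrays and the root hair gene *COBL9* on 15. The root hair genes *EXPA7* and *EXPA18* were not, apart from *EXPA7* on 1 array of starved *AO*pro(wt)-*AO*, and the summed root signal was 0.0434 to 0.0875 in units of the 75th percentile, against 621 to 866 for the shoot list. Without N, *CASP2* was higher in *AO*pro(mut)-*AO* by 0.67 (adjusted p = 0.0068). *CASP1* differed by 0.32 and *COBL9* by 0.22 at that stage (adjusted p = 0.401 and 0.648). At 0 d and after nitrate *CASP2* differed by 0.11 and 0.08 (adjusted p = 0.667 and 0.735). Of 7 flower and seed markers, *AP1*, *AP3*, *PI* and *SEP3* were higher in *AO*pro(mut)-*AO* at every stage, by 0.88 to 2.67 on the log2 scale (adjusted p at most 0.005). *AG* was lower at 0 d (-1.43, adjusted p = 0.000561) and differed by 0.23 and 0.44 later (adjusted p = 0.478 and 0.178), and the seed storage gene *CRA1* was called higher at 0 d alone. At 0 d *AP3* was not well above background on any *AO*pro(wt)-*AO* array, nor *AG* on any *AO*pro(mut)-*AO* array. The values 2.67 (*AP3*) and -1.43 (*AG*) are therefore fitted to spots at background. The summed signal of the 7 (in units of the 75th percentile) was 0.36 to 0.534, 0.619 to 0.836 and 0.853 to 1.12 in *AO*pro(mut)-*AO* at the successive stages, against 0.103 to 0.182, 0.265 to 0.438 and 0.247 to 0.445 in *AO*pro(wt)-*AO*, and the seed storage gene *SESA1* was not well above background on any array. Senescence markers differed between the stages in the same samples. *SAG12* was above background on no array at 0 d and on all arrays afterwards in both lines. *ORE1* changed by 0.70 with starvation in *AO*pro(mut)-*AO* (adjusted p = 0.0106) and by 1.4 in *AO*pro(wt)-*AO* (adjusted p = 3.11e-05), where it fell by 1.23 with nitrate (adjusted p = 0.000161), and *NYE1* changed by 0.47, 0.87 and -0.81 in the same comparisons. With nitrate in *AO*pro(mut)-*AO*, *SAG12*, *ORE1* and *NYE1* changed by 1.95, -0.38 and -0.12 (adjusted p = 0.357, 0.159 and 0.338), and none was called. *ORE1* was higher in *AO*pro(mut)-*AO* by 1.13 at 0 d (adjusted p = 0.000352) and 1.28 after nitrate (adjusted p = 8.17e-05). Without N it differed by 0.43 (adjusted p = 0.0775). *NYE1* was lower in *AO*pro(mut)-*AO* without N (-0.53, adjusted p = 0.000247). It differed by -0.13 at 0 d and 0.15 after nitrate (adjusted p = 0.283 and 0.213). *SAG12* differed by 0.11, -1.44 and 3.27 at the successive stages (adjusted p = 0.964, 0.446 and 0.0897). The summed signal of the 3 was 1.47 to 1.86, 2.19 to 3.73 and 2.56 to 3.55 in *AO*pro(mut)-*AO* at the successive stages, against 1.21 to 1.23, 2.41 to 8.31 and 1.21 to 1.68 in *AO*pro(wt)-*AO*. The part of the flower, root and senescence markers in the results below was not tested. In whole shoots, fewer cells of a type and less RNA per cell cannot be told apart.

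Of the 10 genes, 7 were well above background on all 18 arrays: *IPT3*, *CKX1* and *CKX3* to *CKX7*. *CYP735A2* was above background on 14 arrays. *CYP735A1* and *CKX2* were each above it on only 3 arrays and on all arrays of no group, and were therefore not tested. The 8 tested genes are described by limma over 29416 probes with Benjamini-Hochberg adjustment. A gene is called where the adjusted p is at most 0.05 and the change is at least 1 on the log2 scale. A difference between the lines in a response (the interaction) is called where the unadjusted p is at most 0.001. The plot of signals by array shows all 10 genes.

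**Figure D1:**
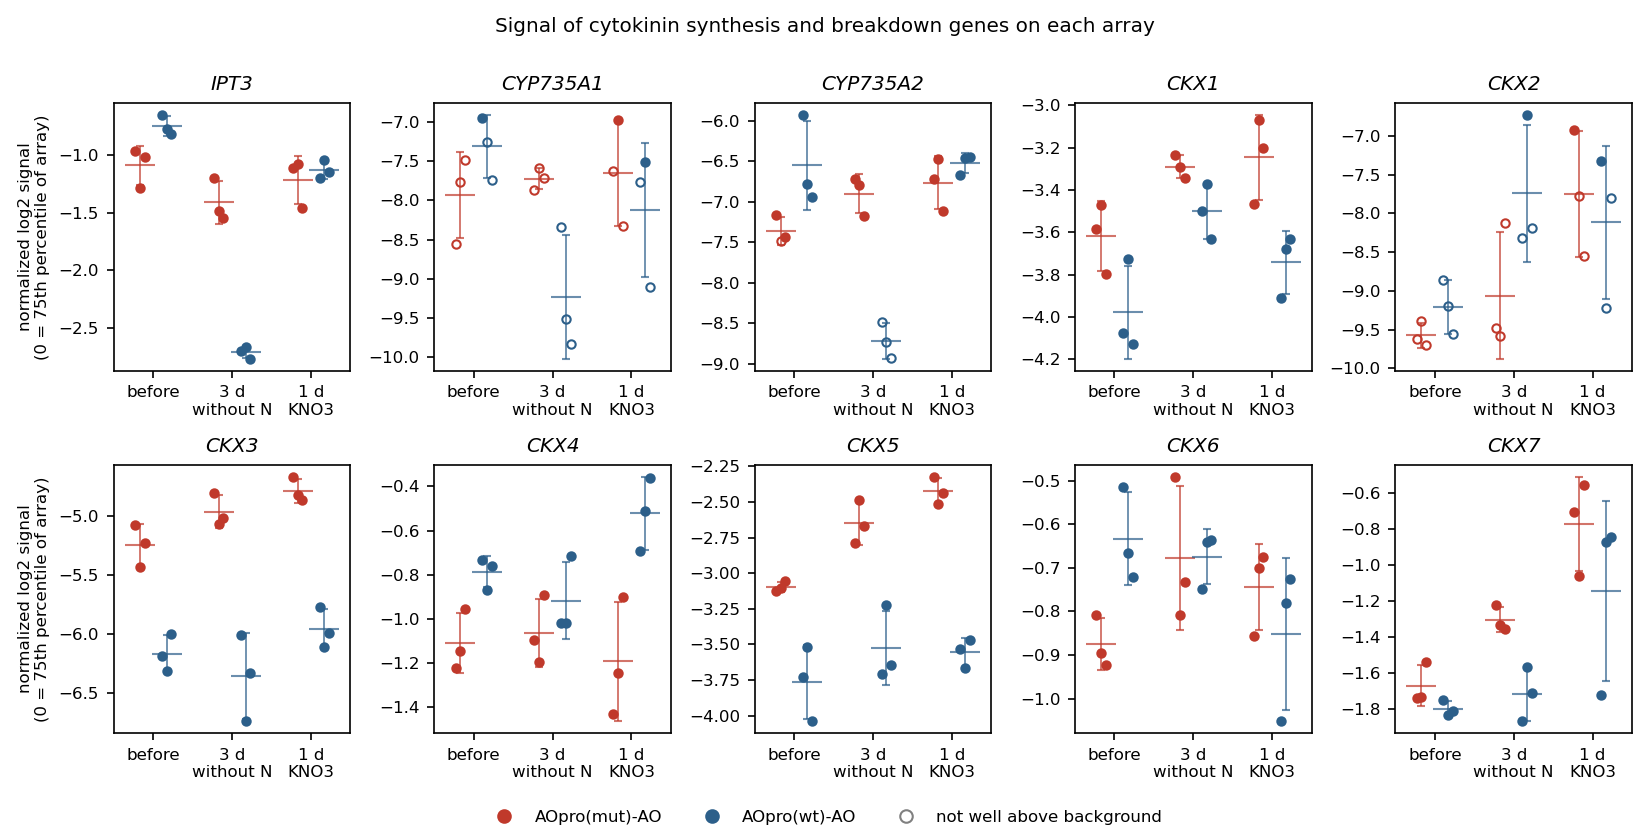
Normalized log2 signal of each gene (vertical axis, 0 is the 75th percentile of the array) in *AO*pro(mut)-*AO* (red, left of each pair) and *AO*pro(wt)-*AO* (blue, right) at the 3 stages. Each point is 1 array, open where the spot was not well above background, and horizontal marks with bars are the mean ± SD (n = 3). *IPT3* and *CYP735A2* are low in starved *AO*pro(wt)-*AO* alone, while *CKX3* and *CKX5* are higher in *AO*pro(mut)-*AO* at all stages.

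Counted over the 8 tested genes, none was called between the lines at 0 d, where 5.77% of the 21060 tested genes were called, although 7 had an unadjusted p under 0.05 and 5 passed the adjusted p alone, as did 38.7% of all genes. Without N, 3 genes were called, all higher in *AO*pro(mut)-*AO* (*IPT3*, *CYP735A2* and *CKX3*), against 7.17% of all genes in either direction and 3.91% higher. After nitrate, 2 were called, both higher (*CKX3* and *CKX5*), against 6.9% of all genes and 4.45% higher. The median log2 difference of the 8 genes was -0.06, 0.64 and 0.24 at the successive stages, while the median over all tested genes was within 0.0123 of 0.

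With starvation none of the 8 was called in *AO*pro(mut)-*AO* (3 at an unadjusted p under 0.05, with 2.44% of all genes called), and 2 were called lower in *AO*pro(wt)-*AO* (4.75% of all genes called, 2.01% lower). With nitrate none was called in *AO*pro(mut)-*AO* (1 at an unadjusted p under 0.05, with 1.44% of all genes called), and 2 were called higher in *AO*pro(wt)-*AO* (4.22% of all genes called, 1.48% higher). Between resupplied plants and those at 0 d none was called in *AO*pro(mut)-*AO* (5 at an unadjusted p under 0.05, 3.37% of all genes called) or in *AO*pro(wt)-*AO* (3 at an unadjusted p under 0.05, 3.38% of all genes called). The interactions were called for 2 of 8 genes for starvation, against 4.02% of all genes, and for the same 2, *IPT3* and *CYP735A2*, for resupply, against 3.84% of all genes.

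*IPT3* and *CYP735A2* fell with starvation and rose with nitrate in the *AO*pro(wt)-*AO* line, and changed less in the *AO*pro(mut)-*AO* line. *IPT3* gave -0.96, -1.29 and -1.02 in the 3 *AO*pro(mut)-*AO* samples at 0 d, then -1.20, -1.48 and -1.55 after 3 days without N, and -1.12, -1.07 and -1.46 after nitrate. In *AO*pro(wt)-*AO* samples it gave -0.65, -0.77 and -0.82 at 0 d, then -2.70, -2.67 and -2.77 without N, and -1.19, -1.04 and -1.15 after nitrate. The 3 starved *AO*pro(wt)-*AO* arrays lay below the other 15, and the 3 *AO*pro(wt)-*AO* arrays at 0 d lay above the other 15. Starvation lowered *IPT3* by a log2 fold change of -1.97 (SE 0.11, adjusted p = 3.51e-08), 3.91 times lower, in *AO*pro(wt)-*AO*. In *AO*pro(mut)-*AO* the change was -0.32 (SE 0.11, adjusted p = 0.0362), past the threshold on p and short of the one on size. The responses differed by 1.65 (SE 0.16, adjusted p = 8.89e-05).

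Nitrate for 24 h changed *IPT3* by 0.19 (SE 0.11, adjusted p = 0.222) in *AO*pro(mut)-*AO*, with a 95% interval of -0.05 to 0.43. In *AO*pro(wt)-*AO* it rose by 1.58 (SE 0.11, adjusted p = 3.18e-07), 3.00-fold. The resupply responses differed by -1.39 (SE 0.16, adjusted p = 0.000646). The resupplied *AO*pro(wt)-*AO* level remained below that at 0 d by a log2 fold change of -0.38 (SE 0.11, adjusted p = 0.0147), and the 2 sets of arrays did not overlap. For resupplied *AO*pro(mut)-*AO* against 0 d it was -0.13 (SE 0.11, adjusted p = 0.426).

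Set side by side at each stage, *IPT3* was lower in *AO*pro(mut)-*AO* at 0 d (log2 fold change -0.34, SE 0.11, adjusted p = 0.0275), with no overlap between the arrays and an adjusted p of 0.00815 to 0.142 over the alternatives tried. It was 2.47-fold higher in *AO*pro(mut)-*AO* after 3 days without N (log2 1.30, SE 0.11, adjusted p = 3.74e-07). After resupply the difference was -0.09 (95% interval -0.33 to 0.15, adjusted p = 0.568). All of these comparisons at the starved stage rest on the same 3 arrays of each line, so the fall, the recovery and the difference between the lines are not independent of each other. Within slides that held both arrays, the starved difference between the lines was 1.5, 1.19 and 1.22, and the fall in *AO*pro(wt)-*AO* was -2.05 and -1.89.

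Phloem companion cell markers were read beside *IPT3*. The summed signal of the 3 markers was 9.13 to 11.1, 9.18 to 9.77 and 7.74 to 9.01 in *AO*pro(mut)-*AO* at the successive stages, against 5.66 to 7.54, 5.58 to 6.65 and 4.61 to 4.97 in *AO*pro(wt)-*AO*. *AHA3*, a plasma membrane proton pump, lies in the raised stretch of chromosome 5 described below and differed between the lines by 1.13, 1.1 and 1.26. The sucrose carrier gene *SUC2* differed by 0.00, -0.01 and 0.34 at the same stages, and the phloem regulator *APL* by 0.07, 0.20 and 0.27. With starvation in *AO*pro(wt)-*AO*, where *IPT3* fell by 1.97, *SUC2* changed by 0.02 and *APL* by -0.25 on the log2 scale.

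*CYP735A2*, a *trans*-hydroxylase, also fell with starvation and rose with nitrate in *AO*pro(wt)-*AO*. Its spot was dim, with processed signals of 6.02 to 46.2 intensity units. In *AO*pro(mut)-*AO* samples it gave -7.17, -7.48 and -7.43 at 0 d (1 of the 3 not well above background), then -6.72, -6.80 and -7.18 without N, and -6.71, -6.47 and -7.12 after nitrate. The *AO*pro(wt)-*AO* samples gave -5.93, -6.78 and -6.95 at 0 d, then -8.49, -8.74 and -8.93 without N, and -6.67, -6.46 and -6.44 after nitrate. The starved *AO*pro(wt)-*AO* spots were not well above background on any of their 3 arrays and lay below the other 15.

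Because that group gives only an upper limit, its folds are given as bounds, taken against the dimmest probe that still counted as well above background on the same arrays. The limit is approximate, since the flag did not follow signal alone. A *CYP735A2* spot of 13.6 units was well above background, and a *CYP735A1* spot of 17.7 units on another array was not. Each "at least", here and for the genes below, is relative to that limit. The adjusted p beside it tests the fitted difference and not the bound. *CYP735A2* was at least 1.44-fold higher in starved *AO*pro(mut)-*AO* than in starved *AO*pro(wt)-*AO* (adjusted p = 1.74e-05). Starvation lowered it at least 1.84-fold in *AO*pro(wt)-*AO* (adjusted p = 4.04e-06), and nitrate raised it at least 1.88-fold there (adjusted p = 8.07e-06). In *AO*pro(mut)-*AO* the log2 changes were 0.46 with starvation (95% interval -0.04 to 0.95, adjusted p = 0.133) and 0.13 with nitrate (95% interval -0.36 to 0.63, adjusted p = 0.702). With the starved *AO*pro(wt)-*AO* group at its limit, the responses of the lines differed by at least 1.34 on the log2 scale for starvation, and by -0.77 or further below 0 for resupply. The interactions fitted to the spots at background had adjusted p = 0.000909 and 0.00405. With normexp background correction and the percentile shift, all of these calls were lost and the starvation interaction was -0.18 (adjusted p = 0.902). At 0 d *CYP735A2* differed by -0.81 (SE 0.23, adjusted p = 0.0139), lower in *AO*pro(mut)-*AO* (0.53, adjusted p = 0.494, with that correction), and by -0.24 (95% interval -0.74 to 0.25, adjusted p = 0.418) after resupply.

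The paralogue *CYP735A1* was above background on 1 array each of *AO*pro(mut)-*AO* after resupply, *AO*pro(wt)-*AO* at 0 d and *AO*pro(wt)-*AO* after resupply. Its highest processed signal was 22.9 intensity units, and no level or fold is drawn from it.

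**Figure D2:**
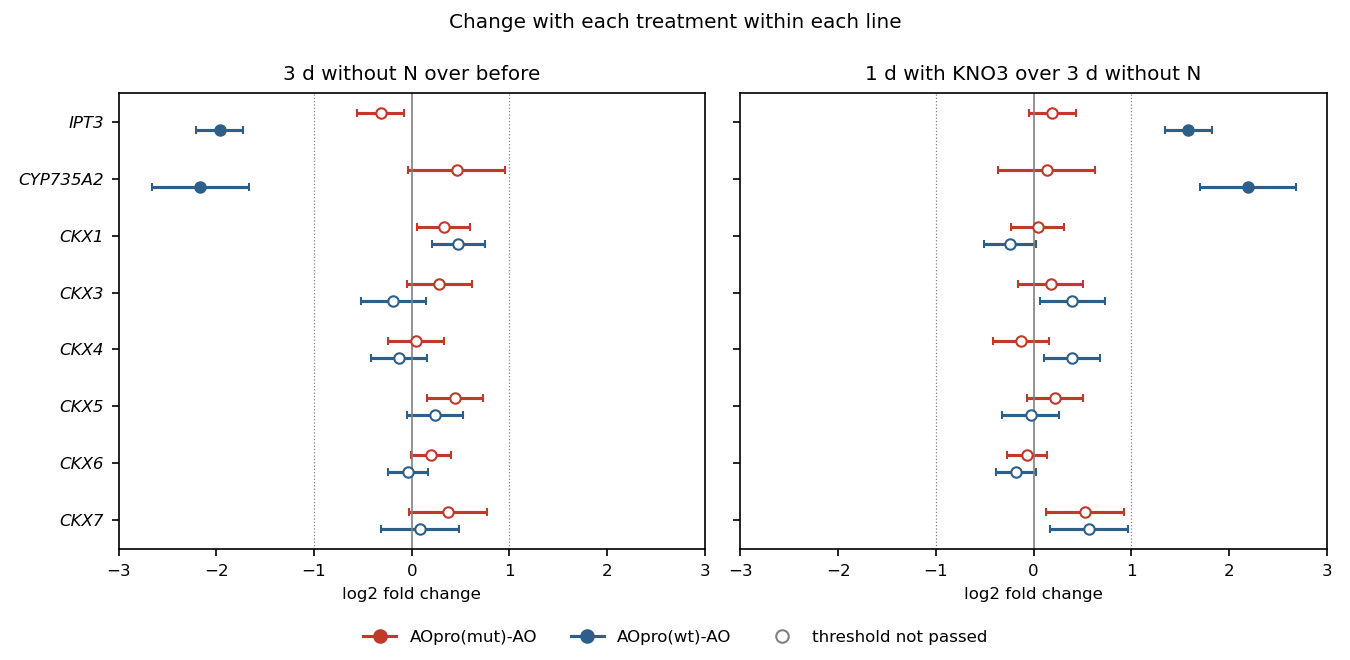
Log2 fold change (horizontal axis) of the 8 tested genes with 3 days without N over 0 d (left panel) and with nitrate over 3 days without N (right panel), in *AO*pro(mut)-*AO* (red, above) and *AO*pro(wt)-*AO* (blue, below). Points are limma estimates from 3 arrays per group, filled where called, bars are 95% confidence intervals, and dotted lines mark a change of 1. *IPT3* and *CYP735A2* in *AO*pro(wt)-*AO* are the called changes in both panels. For *CYP735A2* the blue points are fitted to spots at background and the text gives bounds.

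The breakdown genes showed another pattern. No *CKX* gene was called for a change with starvation or resupply in either line, and the called differences were between the lines. *CKX3* and *CKX5* are known in Arabidopsis for limiting cytokinin in reproductive meristems. *CKX3* gave -5.08, -5.44 and -5.23 in *AO*pro(mut)-*AO* at 0 d, then -4.81, -5.07 and -5.02 without N, and -4.68, -4.83 and -4.87 after nitrate. The *AO*pro(wt)-*AO* samples gave -6.18, -6.31 and -6.00 at 0 d, then -6.00, -6.73 and -6.33 without N, and -5.77, -6.11 and -5.99 after nitrate. All 9 *AO*pro(mut)-*AO* arrays were above all 9 *AO*pro(wt)-*AO* arrays. *CKX3* was higher in *AO*pro(mut)-*AO* by 0.91 at 0 d (SE 0.16, adjusted p = 0.000351), by 1.39 without N (SE 0.16, adjusted p = 5.14e-06) and by 1.17 after nitrate (SE 0.16, adjusted p = 2.77e-05), the last pair being called. Both calls were lost with normexp background correction, where the differences were 0.63 without N and 0.08 after nitrate with the percentile shift.

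*CKX3* lies on chromosome 5 between AT5G49520 and AT5G61610, a stretch whose genes were raised as a block in *AO*pro(mut)-*AO* plants. The bounds of the stretch came from earlier results of these data. The median difference between the lines over its 1034 tested genes was 0.92, 0.93 and 0.95 at the 3 stages, against -0.03, -0.02 and -0.01 over the other 20026 genes. The *CKX3* difference exceeded that of 49.1% of genes in the stretch at 0 d, 85.7% without N and 73.7% after nitrate. None of the other 9 genes lies in it.

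**Figure D3:**
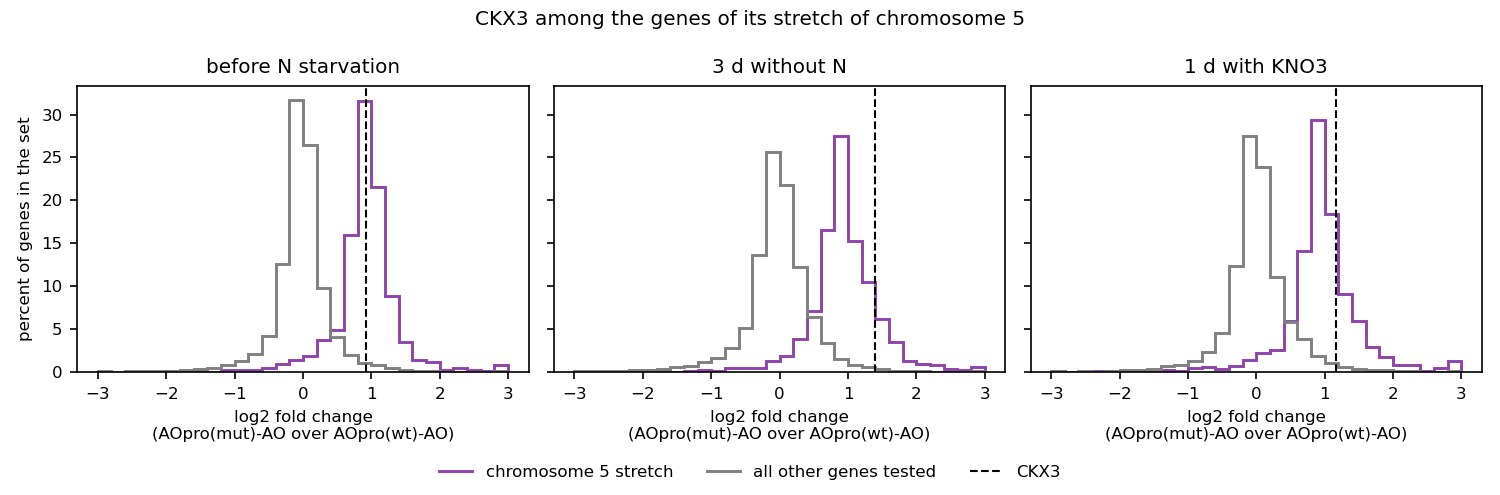
Percent of genes (vertical axis) by log2 fold change of *AO*pro(mut)-*AO* over *AO*pro(wt)-*AO* (horizontal axis) at the 3 stages, for the 1034 tested genes of the chromosome 5 stretch (purple) and the other 20026 tested genes (grey). Values beyond the axis are counted in the outermost bins. The dashed line is *CKX3*, which falls inside the purple distribution at each stage.

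*CKX5*, on chromosome 1, showed a similar offset outside that stretch. It gave -3.13, -3.10 and -3.06 in *AO*pro(mut)-*AO* at 0 d, then -2.79, -2.48 and -2.67 without N, and -2.33, -2.51 and -2.44 after nitrate. Corresponding *AO*pro(wt)-*AO* values were -3.73, -3.52 and -4.04 at 0 d, then -3.71, -3.22 and -3.64 without N, and -3.53, -3.67 and -3.47 after nitrate. The lines did not overlap at any stage. The difference was 0.67 at 0 d (SE 0.13, adjusted p = 0.00135), 0.88 without N (SE 0.13, adjusted p = 9.09e-05) and 1.13 after nitrate (SE 0.13, adjusted p = 9.11e-06), and the last was called. With normexp and the percentile shift it was 0.73 (adjusted p = 0.0282), short of the threshold on size. Within slides it was 0.60 and 0.98 at 0 d, 0.74 to 0.97 without N, and 1.21 and 1.03 after nitrate.

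Within *AO*pro(mut)-*AO*, *CKX5* was higher without N than at 0 d by 0.45 (adjusted p = 0.0166) and higher after nitrate than at 0 d by 0.67 (adjusted p = 0.0023). The same changes in *AO*pro(wt)-*AO* were 0.24 (adjusted p = 0.144) and 0.21 (adjusted p = 0.237). The flower marker sums given above also rose with stage in *AO*pro(mut)-*AO*, and they rose with starvation in *AO*pro(wt)-*AO* too. Their part in the *CKX5* change was not tested.

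*CKX1* differed less. It lay between -3.80 and -3.07 on the 9 *AO*pro(mut)-*AO* arrays (median -3.34), against -4.13 to -3.37 on the 9 *AO*pro(wt)-*AO* arrays (median -3.68), so the lines overlapped over the stages. The difference was 0.36 at 0 d (adjusted p = 0.0363), 0.21 without N (adjusted p = 0.18) and 0.50 after nitrate (adjusted p = 0.00514). Its starvation changes were 0.33 in *AO*pro(mut)-*AO* (adjusted p = 0.0525) and 0.48 in *AO*pro(wt)-*AO* (adjusted p = 0.00481), and they differed by -0.15 (95% interval -0.53 to 0.23).

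*CKX4* ran the other way. After nitrate it gave -1.43, -1.25 and -0.90 in *AO*pro(mut)-*AO*, against -0.69, -0.51 and -0.36 in *AO*pro(wt)-*AO*, with no overlap and a difference of -0.67 (SE 0.13, adjusted p = 0.000889). Nitrate changed it by -0.13 (adjusted p = 0.5) in *AO*pro(mut)-*AO* and by 0.39 (adjusted p = 0.0248) in *AO*pro(wt)-*AO*. The interaction of -0.52 (SE 0.19, adjusted p = 0.114) was not called. The differences at 0 d (-0.32, adjusted p = 0.0742) and without N (-0.15, adjusted p = 0.387) did not pass the threshold.

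*CKX7*, which encodes the cytosolic form of the enzyme, was the *CKX* gene with nitrate-stage changes past the threshold on p in both lines. It gave -0.70, -1.06 and -0.55 after nitrate in *AO*pro(mut)-*AO*, where the 0 d samples had -1.74, -1.73 and -1.54. In *AO*pro(wt)-*AO* it gave -1.72, -0.87 and -0.84 after nitrate and -1.75, -1.83 and -1.81 at 0 d, so the first of the resupplied samples stayed near the level before starvation. Against starved plants it changed by 0.53 (adjusted p = 0.0498) in *AO*pro(mut)-*AO* and by 0.57 (adjusted p = 0.0222) in *AO*pro(wt)-*AO*. Against 0 d the changes were 0.90 (adjusted p = 0.00294) and 0.65 (adjusted p = 0.0128) in the same order of lines. The 95% interval of the difference between the resupply responses was -0.60 to 0.53.

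*CKX6* was the flattest of the tested genes. It lay between -1.05 and -0.49 on the 18 arrays, its 6 group means spanned 0.24, and no comparison gave an adjusted p at the threshold. After resupply the lines differed by 0.11 (95% interval -0.09 to 0.31). *CKX2* was above background on 1 array each of *AO*pro(mut)-*AO* after resupply, *AO*pro(wt)-*AO* without N and *AO*pro(wt)-*AO* after resupply, with a highest processed signal of 27.5 intensity units. No *CKX* interaction was called for starvation or resupply, and their adjusted p ran from 0.114 to 0.956.

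**Figure D4:**
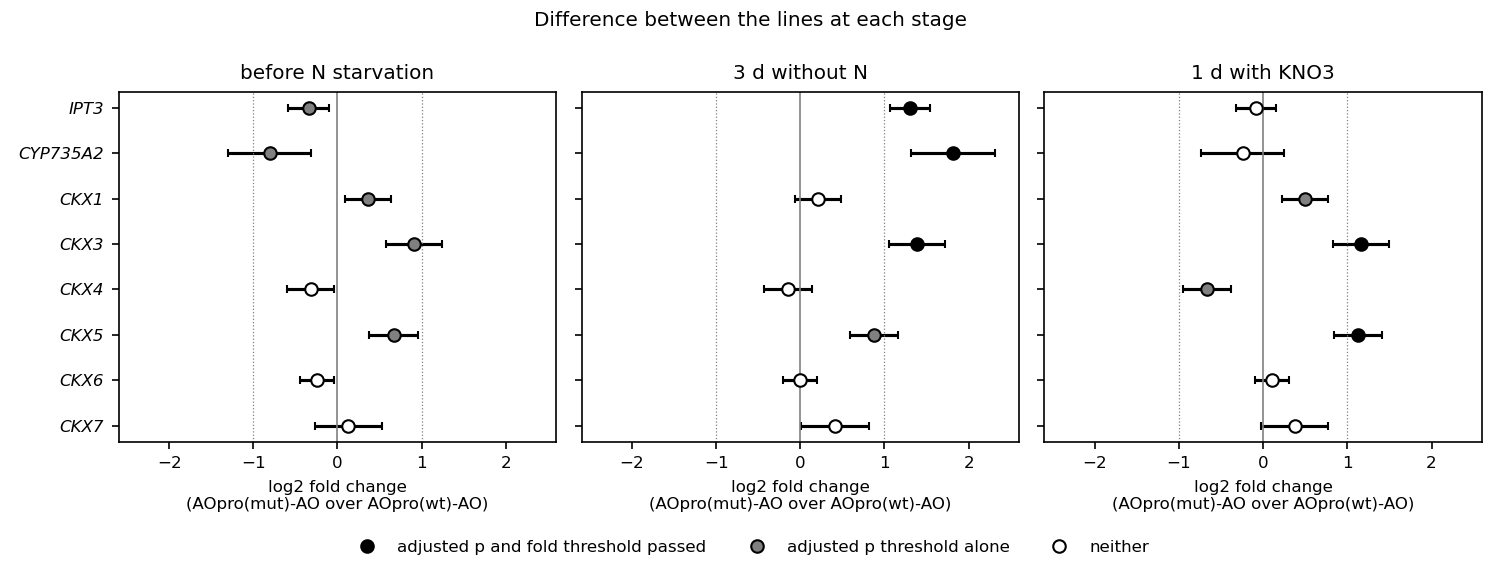
Log2 fold change of *AO*pro(mut)-*AO* over *AO*pro(wt)-*AO* (horizontal axis) for the 8 tested genes at 0 d, after 3 days without N and after 24 h with nitrate. Points are limma estimates from 3 arrays per group with 95% confidence intervals. Black points passed both thresholds, grey points the adjusted p alone and white points neither, and dotted lines mark a change of 1. *CKX3* and *CKX5* are to the right at all stages, *IPT3* and *CYP735A2* only in the middle panel.

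The patterns of the genes over the 18 arrays were compared by Pearson's r, as a description over arrays that share lines and stages. *IPT3* and *CYP735A2* gave r = 0.90 with each other, *CKX3* and *CKX5* 0.83, *CKX1* and *CKX5* 0.80, and *CKX4* and *CKX5* -0.68. Each r with *CYP735A2*, here and below, includes all starved *AO*pro(wt)-*AO* arrays, where its spot was not well above background. Among 3242 variable genes, the closest to *IPT3* were AT3G62930 (r = 0.99), *MIR169m* (0.97) and *MIR169k* (0.96). The closest to *CYP735A2* were AT1G53690 (0.92), AT3G21460 (0.91) and AT1G33340 (0.90). For *CKX3* they were AT2G11270 (0.98), AT4G21323 (0.97) and *PUM19* (0.97), and for *CKX5* AT5G60250 (0.96), AT4G21650 (0.95) and AT5G61090 (0.95). *PUM19*, AT5G60250 and AT5G61090 lie within the bounds of the chromosome 5 stretch.

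The rest of the pathway was read from a list of 52 genes for other IPTs, activation, conjugation, transport, perception and response, of which 45 were tested. Starvation in *AO*pro(mut)-*AO* called 1 of them higher and none lower (2.44% of all tested genes were called in either direction), and in *AO*pro(wt)-*AO* 5 higher and 7 lower (4.75% of all). With nitrate, the *AO*pro(mut)-*AO* line had 2 called higher and 2 lower (1.44% of all), and the *AO*pro(wt)-*AO* line 8 higher and 4 lower (4.22% of all). Between the lines, *AO*pro(mut)-*AO* had 5 called higher and none lower at 0 d (5.77% of all), 9 higher and 3 lower without N (7.17% of all), and 5 higher and none lower after nitrate (6.9% of all). The interaction with starvation was called for 13 of the 45 (10 positive, 3 negative, against 4.02% of all) and that with resupply for 12 (4 positive, 8 negative, against 3.84% of all).

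Of the 4 other isopentenyltransferase genes tested, *IPT5* and *IPT7* were called in the direction opposite to *IPT3*. *IPT2* and *IPT9*, which act on transfer RNA, moved in its direction short of the threshold on size, by -0.19 and -0.79 with starvation in *AO*pro(wt)-*AO* (adjusted p = 0.00429 and 2.12e-06) and by 0.16 and 0.38 with nitrate (adjusted p = 0.0173 and 0.00125). *IPT7* was not well above background at 0 d in either line. Without N it was at least 2.51-fold higher in *AO*pro(mut)-*AO* (adjusted p = 4.32e-05) and at least 5.03-fold higher in *AO*pro(wt)-*AO* (adjusted p = 4.58e-07). Nitrate lowered it at least 2.67-fold in *AO*pro(mut)-*AO* (adjusted p = 0.00121) and by a log2 fold change of -1.86 in *AO*pro(wt)-*AO* (adjusted p = 0.000119). *IPT5* rose in starved *AO*pro(wt)-*AO* by 1.48 (adjusted p = 0.000338, above background on 1 of 3 arrays at 0 d), and nitrate lowered it at least 3.72-fold there (adjusted p = 5.98e-05).

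Among the LOG genes, which act after the hydroxylases, *LOG5* rose by 1.35 (adjusted p = 4.61e-05) and *LOG7* by 1.49 (adjusted p = 1.45e-06) with starvation in *AO*pro(wt)-*AO*. Of this pair, *LOG7* gave a called interaction with starvation, of -1.16 (adjusted p = 0.00673). *LOG5* was higher in *AO*pro(mut)-*AO* at 0 d by 1.11 (adjusted p = 0.000449) and after nitrate by 1.76 (adjusted p = 4.5e-06). *LOG3* was well above background on all *AO*pro(mut)-*AO* arrays and on 1 of 9 *AO*pro(wt)-*AO* arrays. It was at least 3.03-fold higher in *AO*pro(mut)-*AO* without N (adjusted p = 3.34e-06) and at least 2.84-fold higher after nitrate (adjusted p = 4.42e-06). At 0 d mean *LOG3* was also higher, at -4.75 in *AO*pro(mut)-*AO* against -8.86 in *AO*pro(wt)-*AO*, where 1 of 3 arrays was above background.

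The glucosyltransferase gene *UGT76C2*, whose product conjugates cytokinins at a ring nitrogen, followed the course of *IPT3*. It fell by 1.74 with starvation in *AO*pro(wt)-*AO* (adjusted p = 8.49e-08), and its starvation interaction was 1.49 (adjusted p = 0.000202). Nitrate raised it by 1.63 in *AO*pro(wt)-*AO* (adjusted p = 2.41e-07). *UGT73C1*, which can glucosylate *trans*-zeatin, was not well above background in *AO*pro(wt)-*AO* and at least 2.90-fold, 2.27-fold and 2.68-fold higher in *AO*pro(mut)-*AO* at the successive stages (adjusted p = 0.00293, 0.00197 and 0.000568). None of the 5 transporters tested was called in these comparisons of lines, starvation or nitrate.

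In perception, the receptor gene *AHK4* fell by 1.28 with starvation in *AO*pro(wt)-*AO* (adjusted p = 5.88e-08) and rose by 1.28 with nitrate (adjusted p = 8.95e-08). The phosphotransfer gene *AHP4* rose by 3.28 with starvation there (adjusted p = 1.28e-06). Nitrate changed *AHP4* by -2.34 in *AO*pro(mut)-*AO* (adjusted p = 0.000214) and by -4.38 in *AO*pro(wt)-*AO* (adjusted p = 2.73e-07). *AHP6*, an inhibitory phosphotransfer protein, was higher in *AO*pro(mut)-*AO* at 0 d by 1.1 (adjusted p = 0.00275).

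Of 9 type-A response regulators tested, which are induced by cytokinin and dampen its signal, 4 were called lower with starvation in *AO*pro(wt)-*AO* (4.75% of all genes were called) and 5 higher with nitrate (4.22% of all). *ARR6* fell by 2.38 (adjusted p = 5.51e-08) and rose by 3.14 (adjusted p = 7.64e-09), and its interactions were 2.15 (adjusted p = 7.62e-05) and -2.04 (adjusted p = 0.000154). With starvation *ARR7*, *ARR9* and *ARR15* changed by -1.38, -1.15 and -1.41, and with nitrate they and *ARR5* rose by 1.70, 1.27, 1.28 and 1.83 (adjusted p at most 2.16e-06). *ARR17* changed by -0.08 and -0.16 (adjusted p = 0.528 and 0.219). The starvation interaction was called for 8 of the 9, all positive (4.02% of all genes were called), with *ARR17* at 0.62 (adjusted p = 0.026). That interaction includes the difference at 0 d, where 6 of the 9 were lower in *AO*pro(mut)-*AO* on the adjusted p alone (38.7% of all genes passed it in either direction). Mean *ARR5* was -2.36 in both lines without N, from -2.07 in *AO*pro(mut)-*AO* and -1.43 in *AO*pro(wt)-*AO* at 0 d. Without N, 3 of the 9 were called higher in *AO*pro(mut)-*AO* (3.91% of all genes). Among cytokinin response factors, *CRF2* fell by 1.55 with starvation in *AO*pro(wt)-*AO* (adjusted p = 2.36e-06) and rose by 1.09 with nitrate (adjusted p = 8.11e-05). *CRF3*, which also lies in the chromosome 5 stretch, was higher in *AO*pro(mut)-*AO* by 1.22, 1.26 and 1.23 at the successive stages (adjusted p = 8.5e-07, 4.62e-07 and 6.11e-07). *CRF1* was lower in resupplied than in 0 d *AO*pro(wt)-*AO* (-1.07, adjusted p = 2.09e-05), and *CRF6* gave a starvation interaction of -0.68 (adjusted p = 0.0203).

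**Figure D5:**
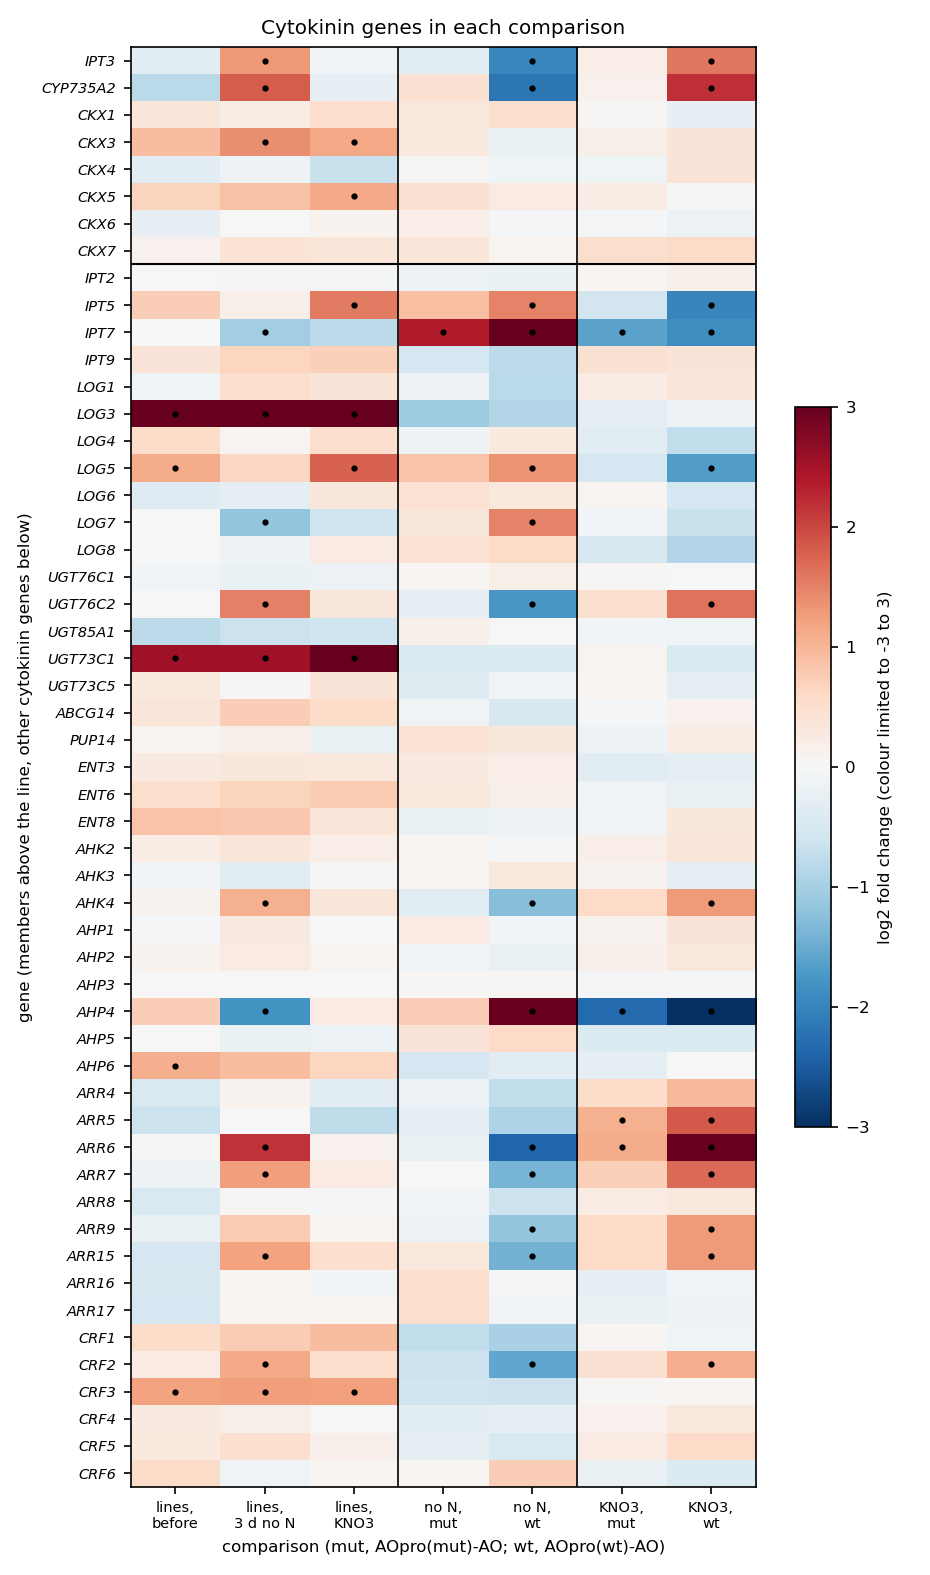
Log2 fold change (colour, limited at the ends of the scale) of the 8 tested synthesis and breakdown genes (above the line) and the 45 other tested cytokinin genes (below it, by role). Columns are *AO*pro(mut)-*AO* over *AO*pro(wt)-*AO* at each stage, then starvation and then nitrate in each line, and dots mark called genes. The *AO*pro(wt)-*AO* columns hold more dots than the *AO*pro(mut)-*AO* columns beside them, and *IPT7* is dotted in all 4.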

How the data were processed

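RNA from whole shoots was hybridised by the authors in one colour (Cy3) to Agilent Arabidopsis arrays, and spots were read with Agilent Feature Extraction 12.1.1.1 per the file headers. The deposited scanner files hold intensity values that Feature Extraction had background-corrected, with flags for background and outliers. The deposited series matrix holds a linear signal scaled so that each array's 75th percentile is 1.03, with 15.4 to 20.1% of values set to 0, and was an alternative. Here log2 of the processed intensity minus each array's 75th percentile was used. Control spots and outlier-flagged spots were left out (no spot of the 10 genes was), and repeated spots were averaged. Probes with a gene name that were well above background on all arrays of at least 1 group were fitted with limma 3.58.1 in R 4.3.3 (6 group means, all 18 arrays, eBayes, 29416 probes), and other genes were counted by their brightest probe. The text names all 10 genes, pathway genes called in any comparison (at most 20, by size of change), and the 3 genes most alike to each called one. Members and lists were chosen with earlier results of these data known. Locations of genes came from RefSeq's TAIR10.1 table. The labels give each group replicates 1 to 3 and do not say that a number marks a shared batch. Same-numbered samples deviated together only between the lines at 0 d (r 0.119 to 0.216), and in no other comparison did all 3 pairs exceed 0.1. Each p measures the spread between pooled samples. The fit was tested on simulated data. The number of arrays limits the precision. The 5 slides each held 3 or 4 groups and were tried as a block.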

Additional observations from a re-analysis of the deposited data

Results flagged for a closer look

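The responses of the lines to N were compared by a test of the difference itself (limma interaction), which *IPT3* and *CYP735A2* passed. For *IPT3* the starvation response differed by 1.65 (SE 0.16, adjusted p = 8.89e-05) and the resupply response by -1.39 (SE 0.16, adjusted p = 0.000646). For *CYP735A2* the fitted differences were 2.62 (adjusted p = 0.000909) and -2.06 (adjusted p = 0.00405), but its starved *AO*pro(wt)-*AO* spots were not well above background. With that group at its limit the starvation responses differed by at least 1.34 and the resupply responses by -0.77 or further below 0, and with normexp and the percentile shift the fitted starvation value was -0.18. All of these values share the 3 starved arrays of each line.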

How the results depend on the processing

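The called *IPT3* changes kept their direction and their calls in all 11 alternatives and with each array left out. Its uncalled difference between the lines after resupply ran from -0.16 to 0.04 with 1 array left out. Its starvation interaction ran from 1.41 to 1.65 and its fall in *AO*pro(wt)-*AO* from -1.97 to -1.73 over the alternatives. The dim *CYP735A2* spot did not: with normexp and the percentile shift its starvation interaction reversed to -0.18. That correction, which adds an offset to dim spots, called 1 gene (line without N), 0 (line after nitrate), 1 (starvation in *AO*pro(wt)-*AO*), 1 (nitrate in *AO*pro(wt)-*AO*) and 1 for each interaction. It also moved the median of all genes by up to -0.13 on the log2 scale. Normexp with quantile normalization gave 1, 0, 1 and 1 in the same 4 comparisons and 1 for the resupply interaction. *CKX3* lost both calls under both normexp settings (0.63 and 0.53 without N, 0.08 and 0.51 after nitrate), and *CKX5* its call (0.73 and 0.84). Probes above background on all arrays, which leaves out *CYP735A2*, gave 1 call for starvation and 1 for nitrate in *AO*pro(wt)-*AO* and 1 for each interaction. Without a filter, 4 were called for starvation in *AO*pro(wt)-*AO* (with *CYP735A1* and *CKX2*, both at background) and 1 between resupplied and 0 d *AO*pro(mut)-*AO*. *CYP735A1* was then also called between the lines without N (1.51, adjusted p = 0.0218). Without a minimum fold, the counts between lines were 5 at 0 d, 4 without N and 4 after nitrate. Those for starvation and nitrate were 2 and 1 in *AO*pro(mut)-*AO*, and 3 and 5 in *AO*pro(wt)-*AO*. Between resupplied and 0 d plants they were 4 in *AO*pro(mut)-*AO* and 2 in *AO*pro(wt)-*AO*. Leaving out 1 array gave 0 to 1 calls at 0 d (*CYP735A2* at -1.0 without the third *AO*pro(wt)-*AO* array, *CKX3* at 1.01 without the second *AO*pro(mut)-*AO* array), 3 to 4 without N (*CKX5* at 1.03 without the second *AO*pro(wt)-*AO* array), and 0 to 1 for resupplied against 0 d *AO*pro(mut)-*AO* (*CKX7* at 1.04 without the second resupplied array). Other counts did not move. With the replicate block the *CKX4* resupply interaction of -0.52 was called (adjusted p = 0.0252), as with the slide as a block (-0.48, adjusted p = 0.0316), and the block changed no other call. A second probe could not be tried, since each gene had 1. Where not stated, the cause was not tested.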
